A study of Mus musculus with 10 samples.

Results

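The S100-fused type genes encode large proteins of late squamous differentiation that join an S100-like calcium-binding domain to long stretches of repeats. They lie side by side in the epidermal differentiation complex, a cluster of barrier genes on mouse chromosome 3. The listed members are Flg (filaggrin), Flg2, Hrnr (hornerin), Rptn (repetin), Tchh (trichohyalin), Tchhl1 (trichohyalin-like) and Crnn (cornulin). They were found by gene name in the deposited table of 22740 protein-coding genes: 6 of the 7 had a row, and Flg was not analysed here. Of these 6, 5 passed the filter on low counts and were tested, and Flg2 was too low.

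The libraries came from oesophagus of C57BL/6 mice given 4-NQO (4-nitroquinoline 1-oxide, a carcinogen that induces squamous tumours of mouth and oesophagus). By their labels 5 mice form a Grhl3 knockout group (Grhl3 KO), whose tissue is described as tumour, and 5 form a wild-type group, whose tissue is described only as oesophageal, while the design text speaks of tumours from mice of both groups. All 10 mice had the carcinogen, and no untreated mice are among the samples. The series title speaks of conditional knockouts and the Grhl3 KO columns carry "L2Cre", which the sources used here do not explain. The sources used here do not give mouse age, sex or the promoter driving Cre. The comparison asks how these genes differ between 4-NQO-treated oesophagus labelled Grhl3 knockout and wild type. Grhl3 is a grainyhead family transcription factor needed for the epidermal barrier.

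In keratinising epithelia these proteins are stored in granules of the uppermost living cells and are then cut, deiminated or crosslinked as the cells flatten and die. Filaggrin-type proteins bundle keratin filaments and are broken down to small molecules that hold water in the skin. Trichohyalin hardens the inner root sheath of hair and the papillae of the tongue. Repetin was described in mouse tongue, forestomach and skin, and cornulin is known in human oesophagus as an abundant squamous protein.

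Total counts ran from 15.3 to 32.9 M in Grhl3 KO libraries and from 17.8 to 23.4 M in wild-type libraries. Levels are in CPM, counts scaled to a common library size by the TMM method. Grhl3 itself stood at 222 ± 66.8 CPM in Grhl3 KO mice and 207 ± 112 CPM in wild-type mice (SD, n = 5 each), with a log2 fold change of 0.11 and an edgeR adjusted p of 0.979 over all genes tested. The counts are summed over the whole gene, so they do not show whether part of the transcript is missing, and no value here checks the knockout label. Genotype and the tissue description (tumour against oesophageal) run together in the labels and cannot be told apart. Squamous markers were abundant: Krt13 averaged 14534 CPM in Grhl3 KO mice and 18519 CPM in wild-type mice, and Krt5 averaged 9679 CPM in Grhl3 KO mice and 11377 CPM in wild-type mice. Markers of glandular stomach summed to 0.347 to 2.78 CPM in Grhl3 KO mice and 0.579 to 3.48 CPM in wild-type mice, with Pgc at 0 in every library. Of genes on the Y chromosome, 4 (Ddx3y, Eif2s3y, Kdm5d, Uty) summed to 162 to 203 CPM in Grhl3 KO, against 154, 177, 0.0527, 0.0539 and 72.3 CPM in wild-type libraries 1028, 1048, 1528, 1555 and 1561. Libraries are named by the sample number in their title; the 3 wild-type libraries numbered 15xx have no Grhl3 KO counterpart with such a number, and what the numbers stand for is not stated.

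Promoter sequences of the measured genes are shown first because a short shared element stands at a similar place in several of them. The stretch from base −150 to base −11 before the annotated start (RefSeq, GRCm38.p6, plus strand of chromosome 3) is printed for Crnn, Flg2, Hrnr, Tchh and Tchhl1. For Rptn the whole window of 300 bases is printed. Capitals mark matches to the AP-1 motif TGANTCA (AP-1 factors drive many keratinocyte genes), to the TATA box TATAAA and to the grainyhead motif AACNGGTT.
Crnn (chr3:93144639-93144778): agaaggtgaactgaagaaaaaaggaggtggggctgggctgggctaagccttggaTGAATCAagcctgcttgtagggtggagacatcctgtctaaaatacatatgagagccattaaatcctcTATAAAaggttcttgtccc
Flg2 (chr3:93197123-93197262): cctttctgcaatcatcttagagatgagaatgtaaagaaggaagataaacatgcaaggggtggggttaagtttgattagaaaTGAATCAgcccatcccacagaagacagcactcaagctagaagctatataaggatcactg
Hrnr (chr3:93319599-93319738): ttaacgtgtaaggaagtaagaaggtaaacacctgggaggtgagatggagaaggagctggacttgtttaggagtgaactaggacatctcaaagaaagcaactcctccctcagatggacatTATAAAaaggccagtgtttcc
Rptn (chr3:93393449-93393748): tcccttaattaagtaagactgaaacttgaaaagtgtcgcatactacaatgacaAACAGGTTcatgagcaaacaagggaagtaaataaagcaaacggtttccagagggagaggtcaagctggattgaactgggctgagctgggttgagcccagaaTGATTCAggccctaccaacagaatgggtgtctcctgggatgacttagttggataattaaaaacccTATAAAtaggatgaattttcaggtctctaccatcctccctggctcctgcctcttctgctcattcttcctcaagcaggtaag
Tchh (chr3:93442180-93442319): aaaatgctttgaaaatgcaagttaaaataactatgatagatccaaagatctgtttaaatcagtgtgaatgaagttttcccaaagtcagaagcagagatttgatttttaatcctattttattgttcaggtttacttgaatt
Tchhl1 (chr3:93468604-93468743): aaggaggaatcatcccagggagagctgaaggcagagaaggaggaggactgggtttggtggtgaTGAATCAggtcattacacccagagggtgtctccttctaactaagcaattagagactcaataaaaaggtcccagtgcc

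TGANTCA was present in 4 of the 6 promoter windows, starting at −96 in Crnn, −69 in Flg2, −96 in Rptn and −87 in Tchhl1. Hrnr and Tchh had no match in their windows. The annotated Tchh start opens with ATG, and its annotation holds 2 exons where the other measured members have 3 or 4. The Tchh window holds 28.7% G and C, against 44.3 to 48% in the others. It may therefore not be the promoter of Tchh, and its lack of matches says little. Both strands were searched for each motif, and the motif was chosen after the promoters had been read. Of all 32851 promoter windows of 300 bases in the table, 7.81% held TGANTCA, and of 54 windows of other genes of the complex 14 did (25.9%). TATAAA was found in Crnn, Hrnr and Rptn (13.6% of all windows, and 21 of the 54 or 38.9% for other genes of the complex), and in Crnn and Rptn it started 67 and 65 bases after the AP-1 match. AACNGGTT was found once, at −197 in Rptn, as AACAGGTT (2.09% of all windows, 3.70% for the complex). The KLF motif GGGNGTGG was found in 0 of the 6 (17.6% of all windows, 7.41% for the complex). These are matches of letters and not shown to be bound. Only exact matches were marked, so a near form of the TATA box, such as tatataa in the Flg2 stretch, was not counted.

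**Figure D1:**
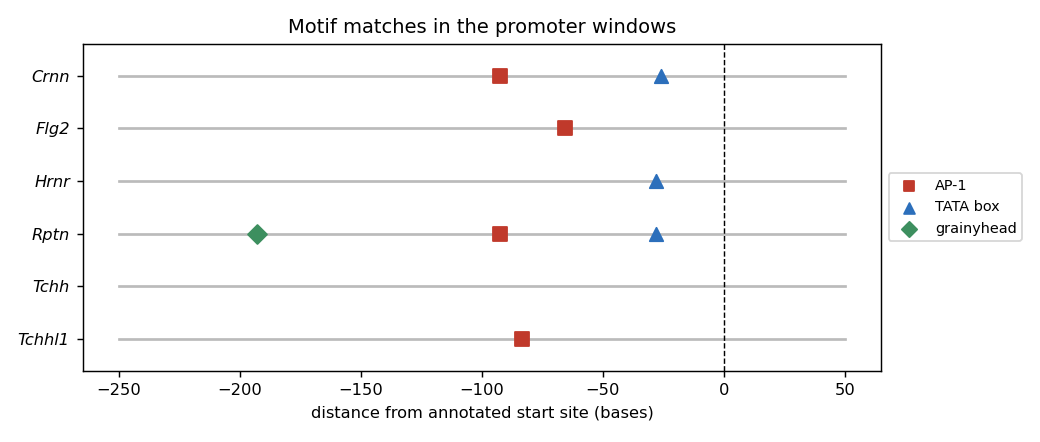
Motif matches in the 300-base promoter windows of the 6 measured genes, drawn by distance in bases from the annotated start site (dashed line). The annotated Tchh start opens with ATG, so its window may not be its promoter. AP-1 matches (squares) sit between −96 and −69 in Crnn, Flg2, Rptn and Tchhl1. Exact TATAAA matches (triangles) sit between −31 and −29 in Crnn, Hrnr and Rptn, and the single grainyhead match (diamond) at −197 in Rptn.

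Rptn was by far the most abundant of these transcripts. Per kb of exonic length it averaged 240 ± 117 CPM in Grhl3 KO mice and 303 ± 264 CPM in wild-type mice (SD, n = 5 each). Tchh came next with 11.6 ± 5.51 CPM per kb in Grhl3 KO mice and 7.21 ± 3.44 CPM per kb in wild-type mice, and Rptn lay above Tchh in all 10 libraries, as Tchh lay above Crnn. Crnn averaged 3.98 ± 1.27 CPM per kb in Grhl3 KO mice and 2.16 ± 1.02 CPM per kb in wild-type mice. Rptn made up 89.4 to 95.2% of the length-scaled sum of the 6 genes in Grhl3 KO libraries and 91.9 to 98.0% in wild-type libraries.

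The lower ranks differed between the groups. Hrnr averaged 0.211 ± 0.123 CPM per kb in Grhl3 KO mice and 3.71 ± 5.23 CPM per kb in wild-type mice, and Tchhl1 averaged 2.17 ± 1.36 CPM per kb in Grhl3 KO mice and 0.937 ± 0.904 CPM per kb in wild-type mice. Hrnr lay above Tchhl1 in 0 of 5 Grhl3 KO libraries and in 5 of 5 wild-type libraries. Crnn lay above Hrnr in 5 of 5 Grhl3 KO libraries and in 3 of 5 wild-type libraries. The level of Hrnr carries a limit of its own: 68.2% of the stretches of 75 bases in its longest transcript occur more than once within that transcript, and the sources used here do not say how such reads were counted. The same share was 60.3% for Flg2, 5.25% for Tchh and 0 for Rptn, Crnn and Tchhl1, and none of these transcripts had a stretch of at least 75 bases with 95% identity to another gene.

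Of the 5 tested genes 3 had higher and 2 lower fitted levels in Grhl3 KO, where 49.7% of all 13731 genes tested were higher, and their median log2 fold change was 0.69 against −0.00106 over all genes. By edgeR 0 of the 5 passed an adjusted p of 0.05, 0 higher and 0 lower, where 0.0801% of all genes passed it, 0.0291% higher and 0.0510% lower. DESeq2 called 1 of the 5, Hrnr, where it called 0.868% of all genes, and limma voom, run with a quality weight for each library, called 0, where it called 0.00728%. An unadjusted p under 0.05 was reached by 2 of the 5, Crnn as higher and Hrnr as lower, where 7.16% of all genes reached it, 3.44% higher and 3.72% lower. The groups did not overlap for 1 of the 5, Hrnr, as for 1.35% of all genes, 0.787% higher and 0.568% lower. An absolute log2 fold change of at least 1 was found for 2 of the 5, Hrnr and Tchhl1, and for 2.64% of all genes. The spread within groups was high: by SD of log2 CPM, Hrnr stood at percentile 99.0 of all genes tested, Tchhl1 at 98.7, Rptn at 97.1, Tchh at 87.8 and Crnn at 82.2.

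**Figure D2:**
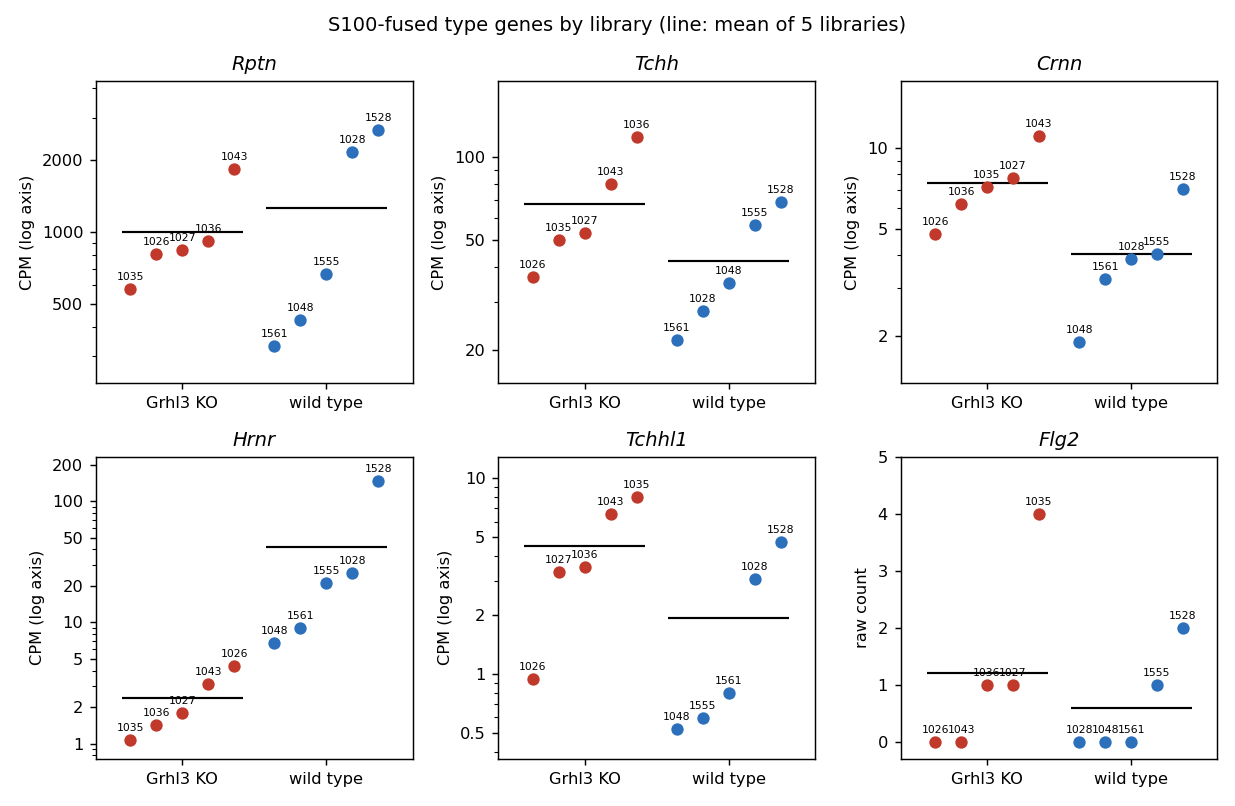
Level of each gene in every library, as CPM on log axes and as raw counts for Flg2, with Grhl3 KO libraries left of wild-type libraries, sample numbers above the points and a line at the mean of 5 libraries. The Hrnr groups do not overlap, the groups of the other genes do, and wild-type library 1528 is the highest wild-type library in each panel.

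Hrnr, which encodes hornerin of the cornified envelope, showed the largest difference of the 5 tested genes. Hrnr (ENSMUSG00000041991, GRCm38 chromosome 3, 93319749 to 93333570) stood at 4.40, 1.79, 1.07, 1.42 and 3.10 CPM in Grhl3 KO libraries 1026, 1027, 1035, 1036 and 1043, against 25.5, 6.74, 145, 21.1 and 8.99 CPM in wild-type libraries 1028, 1048, 1528, 1555 and 1561. Every Grhl3 KO library was below every wild-type library, and wild-type library 1528 stood far above the rest. Hrnr counts summed to 251 over the Grhl3 KO libraries and to 4004 over the wild-type libraries. In bulk tissue, fewer cells of a type and less RNA per cell cannot be told apart.

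The log2 fold change of Hrnr came to −4.19 (SE 0.90; 95% limits −6.16 and −2.22), or 18.3-fold lower in Grhl3 KO (edgeR adjusted p = 0.206). It ranked 46 by p among 13731 genes tested and missed the threshold of 0.05. DESeq2 called it, at −4.15 (DESeq2 adjusted p = 0.00041), and limma voom did not, at −3.39 (limma adjusted p = 0.376). Over all genes, 0.568% separated the groups without overlap and were lower in Grhl3 KO.

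Part of the size rested on wild-type library 1528: leaving it out gave a log2 fold change of −2.76, or 6.75-fold lower (edgeR adjusted p = 0.239). It was −2.57 without wild-type libraries 1528 and 1555, in which Y-linked genes were nearly absent (edgeR adjusted p = 0.549), and −2.49 with Y-linked expression as a covariate (edgeR adjusted p = 0.810). Within the libraries numbered 10xx, 5 Grhl3 KO and 2 wild type, it was −2.80 (edgeR adjusted p = 0.493). The 15xx libraries hold no Grhl3 KO mouse, so no value exists within them. Beyond these fits, the part of sex-linked content and of the sample-number series in the Hrnr levels was not tested.

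Rptn, the leading transcript of the set, did not separate the groups. Rptn (ENSMUSG00000041984, GRCm38 chromosome 3, 93393699 to 93399442) stood at 810, 839, 577, 916 and 1835 CPM in Grhl3 KO libraries 1026, 1027, 1035, 1036 and 1043, against 2170, 426, 2686, 663 and 331 CPM in wild-type libraries 1028, 1048, 1528, 1555 and 1561. The Grhl3 KO libraries lay inside the wild-type range, in which the highest library held 8.13 times the lowest. The log2 fold change was −0.33 (95% limits −1.61 to 0.94, edgeR adjusted p = 0.951). It turned to 0.15 without wild-type library 1528 and to 0.44 with suprabasal epithelial content as a covariate. The summed level of the 8 suprabasal markers, among them Krt4, Krt13 and Sprr3, was 38560 to 65989 CPM in Grhl3 KO mice and 24821 to 110741 CPM in wild-type mice. Its part in the Rptn levels was tested only by that covariate.

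Set against Rptn within each library, Hrnr also separated the groups. Rptn exceeded Hrnr per kb 496 to 1743 times in the Grhl3 KO libraries and 49.9 to 229 times in the wild-type libraries. Hrnr levels alone already separated the groups, and the ratios of Tchh and of Crnn to Hrnr did so too. These ratios do not depend on library scaling. The ratio to Rptn was chosen after the values were seen and carries no test.

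**Figure D3:**
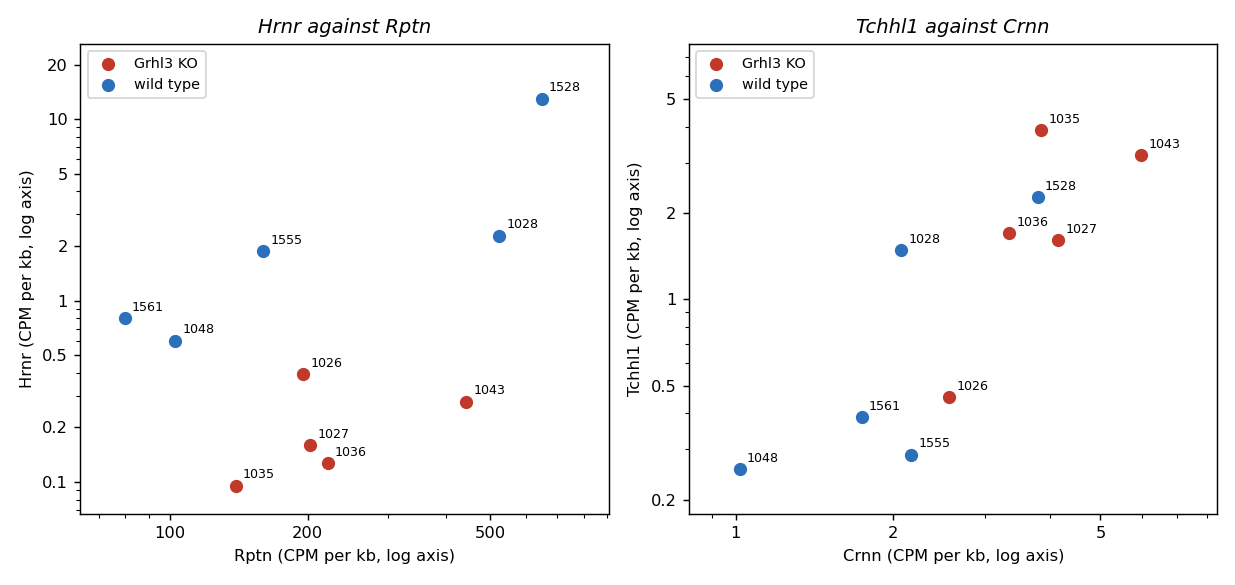
Hrnr against Rptn (left) and Tchhl1 against Crnn (right) in CPM per kb on log axes, each point a library with its sample number. Over overlapping ranges of Rptn, every Grhl3 KO library lies below every wild-type library in Hrnr, while in the right panel libraries with more Crnn tend to have more Tchhl1 (r = 0.835).

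Crnn, Tchhl1 and Tchh had higher fitted levels in Grhl3 KO, none past the threshold. Crnn (ENSMUSG00000078657, GRCm38 chromosome 3, 93144787 to 93149819) stood at 4.78, 7.75, 7.17, 6.22 and 11.2 CPM in Grhl3 KO libraries 1026, 1027, 1035, 1036 and 1043, against 3.87, 1.90, 7.07, 4.04 and 3.25 CPM in wild-type libraries 1028, 1048, 1528, 1555 and 1561. The groups overlapped through wild-type library 1528, and the other 4 wild-type libraries lay below every Grhl3 KO library. The log2 fold change of Crnn came to 0.88 (SE 0.33; 95% limits 0.15 and 1.61), where edgeR gave an unadjusted p of 0.0225 and an adjusted p of 0.607. It was 1.38 with Y-linked expression as a covariate (edgeR adjusted p = 0.658).

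Tchhl1, a little-studied relative of trichohyalin, varied the most after Hrnr. Tchhl1 (ENSMUSG00000027908, GRCm38 chromosome 3, 93468754 to 93471980) stood at 0.943, 3.33, 8.03, 3.51 and 6.57 CPM in Grhl3 KO libraries 1026, 1027, 1035, 1036 and 1043, against 3.07, 0.527, 4.69, 0.593 and 0.800 CPM in wild-type libraries 1028, 1048, 1528, 1555 and 1561. Grhl3 KO library 1026 lay close to the 3 low wild-type libraries, and wild-type libraries 1028 and 1528 reached into the Grhl3 KO range. The log2 fold change was 1.21 (95% limits −0.32 to 2.75, edgeR adjusted p = 0.784), and 1.84 without wild-type library 1528.

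Tchh, encoding trichohyalin of hair sheath and tongue papillae, was the second most abundant of the set. Tchh (ENSMUSG00000052415, GRCm38 chromosome 3, 93442330 to 93449077) stood at 36.9, 53.1, 50.1, 118 and 80.1 CPM in Grhl3 KO libraries 1026, 1027, 1035, 1036 and 1043, against 27.8, 35.0, 69.0, 56.6 and 21.7 CPM in wild-type libraries 1028, 1048, 1528, 1555 and 1561. The ranges overlapped, and Grhl3 KO library 1036 was the highest of all. The Tchh log2 fold change was 0.69 (95% limits −0.14 to 1.51, edgeR adjusted p = 0.763), 0.38 without Grhl3 KO library 1036 and 1.31 with Y-linked expression as a covariate. A predicted gene on the opposite strand, Gm37245, overlaps Hrnr, Rptn and Tchh in the annotation; the library kit keeps strand and the table's name says reverse-stranded counts. A second predicted gene, Gm37857, overlaps Rptn on the same strand, where strand does not separate the reads.

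Flg2, a filaggrin-like gene of skin, was at the limit of detection. Its counts were 0, 1, 4, 1 and 0 in Grhl3 KO libraries 1026, 1027, 1035, 1036 and 1043, against 0, 0, 2, 1 and 0 in wild-type libraries 1028, 1048, 1528, 1555 and 1561. In 9 of 10 libraries the count was at or under 3, the floor that a count of 0 allows, which corresponds to 0.0867 to 0.189 CPM by library and covers counting error only. No fold change is given, and any difference was not detectable at this depth.

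**Figure D4:**
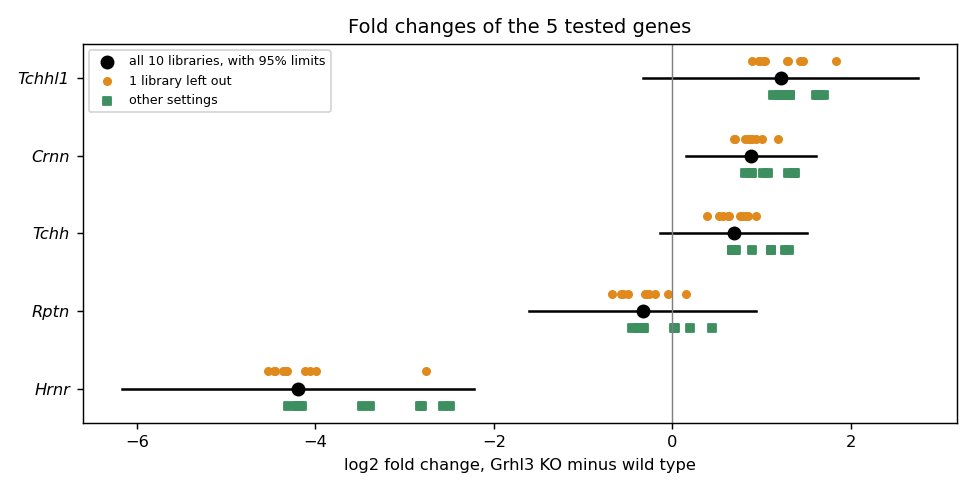
Log2 fold changes of the 5 tested genes, Grhl3 KO minus wild type, with 95% limits (black), with 1 library left out (circles above) and under the other settings (squares below). Hrnr stays between −4.53 and −2.49, Crnn, Tchhl1 and Tchh stay above 0, and Rptn falls on both sides of 0.

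Of the 10 pairs of tested genes, 1 passed the threshold for correlation across libraries. After centring on each group 0 of the 10 passed it. Their centred r was positive, from 0.351 to 0.809, and was not compared with pairs of other genes. Among the pairs, Tchhl1 and Crnn were correlated in log2 CPM (Pearson r = 0.835, permutation p = 0.00246, adjusted over the 10 pairs 0.0246; Spearman rho = 0.842, permutation p = 0.00364, adjusted 0.0364; 10 libraries). Without the 2 libraries farthest from the median of Tchhl1, r was 0.778. After centring on each group r was 0.767 (exact permutation within groups, adjusted p = 0.0677), and within the 7 libraries numbered 10xx it was 0.836 (adjusted exact permutation p = 0.161). With 1 library left out r ran from 0.792 to 0.880, and the adjusted p missed the threshold when any of Grhl3 KO 1036, Grhl3 KO 1043, wild type 1048 and wild type 1528 was left out.

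The other 9 pairs missed the threshold. Hrnr and Rptn had r = 0.450 over all libraries (adjusted permutation p = 0.319; rho = 0.261, adjusted permutation p = 0.467), 0.000529 without the 2 libraries farthest from the Hrnr median, and 0.809 after centring on each group (exact permutation within groups, adjusted p = 0.0677). Hrnr and Crnn had r = −0.257 over all libraries (adjusted permutation p = 0.548; rho = −0.503, adjusted permutation p = 0.238), −0.568 without the 2 libraries farthest from the Hrnr median, and 0.682 after centring. Within the 10xx libraries the r of Hrnr was 0.449 with Rptn, −0.579 with Crnn and −0.436 with Tchhl1 (n = 7, adjusted exact permutation p = 0.369 for each). With Tchh it was −0.714 there (adjusted exact permutation p = 0.338). Wild-type library 1528 had the highest wild-type level of all 6 genes, and Grhl3 KO library 1026 had the highest Hrnr and the lowest Tchh, Tchhl1 and Crnn of its group.

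The genes whose levels followed each member most closely were taken by Pearson r of log2 CPM over the 10 libraries, among 13088 genes of at least 1 CPM, as a description with no test. For Rptn these were Eps8l1, an actin regulator (r = 0.951), Serpina9, a serpin (0.941), and Lce1a2, a late cornified envelope gene of the same complex (0.940). For Crnn they included Pspn, encoding the growth factor persephin (0.954), and Cidea, a lipid droplet protein gene (0.949). For Tchh they were Lrp10 (0.930), the amino acid transporter gene Slc6a14 (0.930) and Lpin2, encoding a lipin phosphatase (0.920). For Tchhl1 they were the sulfotransferase gene Chst1 (0.942), Ddah2 (0.936) and Paqr8 (0.888). For Hrnr they were Olfm2 (0.974), Hsbp1l1 (0.939) and the centrin gene Cetn2 (0.937). Each had a lower fitted level in Grhl3 KO, a direction that picking by likeness to Hrnr favours. After centring on each group their r was 0.970, 0.818 and 0.806. Olfm2 averaged 0.545 ± 0.252 CPM in Grhl3 KO mice and 2.09 ± 2.06 CPM in wild-type mice; its log2 fold change was −1.97 with an edgeR adjusted p of 0.429.

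Around the S100-fused type genes, the complex holds 64 other genes of the table, of which 55 were tested. Of these, 19 had higher and 36 lower fitted levels in Grhl3 KO, with a median log2 fold change of −0.26, and 0 passed the adjusted p in edgeR. An unadjusted p under 0.05 was found for 14 of the 55, 4 higher and 10 lower, where 7.16% of all genes reached it, 3.44% higher and 3.72% lower. DESeq2 called 2, Sprr2k and Prr9, where it called 0.868% of all genes. Sprr2k, an envelope precursor gene, stood at 4.21 to 14.9 CPM in Grhl3 KO mice and 20.1 to 211 CPM in wild-type mice; its log2 fold change was −2.995 with an edgeR adjusted p of 0.257. Prr9, encoding a proline-rich protein, averaged 20.6 ± 18.2 CPM in Grhl3 KO mice and 2.41 ± 1.32 CPM in wild-type mice; its log2 fold change was 3.09 with an edgeR adjusted p of 0.283. Pglyrp3, a peptidoglycan recognition gene, was at −0.97 and Sprr2f at 1.36 on the log2 scale (edgeR adjusted p = 0.428 and 0.451).

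**Figure D5:**
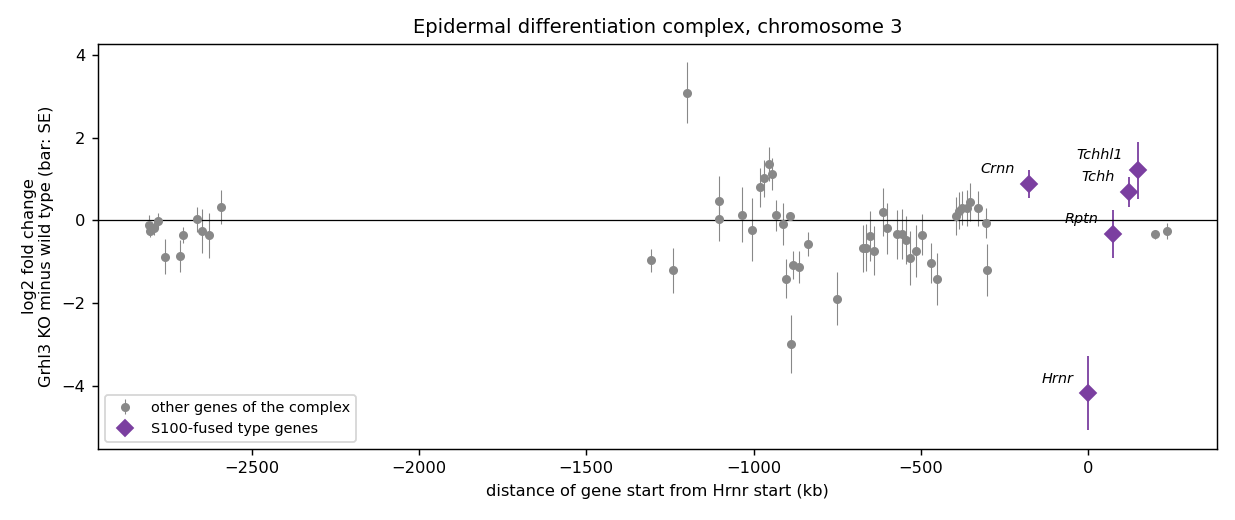
Log2 fold change of each tested gene of the epidermal differentiation complex, Grhl3 KO minus wild type (bars: SE), by distance of its start from the Hrnr start in kb. Hrnr is the lowest point at −4.19, its neighbours Rptn, Tchh and Tchhl1 lie between −0.33 and 1.21, and Sprr2k and Prr9 are the other extremes at −2.995 and 3.09.

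Genes that act on these proteins had fitted levels in both directions. In the lists that follow, higher and lower mean the fitted level in Grhl3 KO, and limma voom called 0 members of each list. Over all genes tested, 7.16% had an unadjusted p under 0.05 (3.44% higher, 3.72% lower) and DESeq2 called 0.868%. Of 12 tested proteases and inhibitors that process filaggrin-type proteins 8 were higher and 4 lower (median log2 fold change 0.18), with 0 past the adjusted p in edgeR, 5 at an unadjusted p under 0.05 (2 higher and 3 lower) and 0 called by DESeq2. St14 (matriptase) was at 0.55 and Klk7, a kallikrein of the cornified layer, at 1.36, while Klk5 was at −1.25 and Casp14, the caspase of cornification that cuts filaggrin, at −1.30 (edgeR adjusted p = 0.428, 0.621, 0.651 and 0.695). Of 6 deimination and histidine breakdown genes 2 were higher and 4 lower (median −0.24), with 0 past the adjusted p in edgeR, 0 at an unadjusted p under 0.05 and 0 called by DESeq2. The peptidylarginine deiminase genes Padi1, Padi3 and Padi4 were at −0.999, −0.82 and 0.67, and Hal, encoding histidine ammonia-lyase, at −0.33 (edgeR adjusted p = 0.731, 0.921, 0.751 and 0.913).

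Of 17 tested envelope partners 6 were higher and 11 lower, with a median log2 fold change of −0.10. Krt1, a keratin of cornifying epidermis, was the 1 member past the adjusted p in edgeR, as higher. It averaged 200.3 ± 97.7 CPM in Grhl3 KO mice and 24.2 ± 11.2 CPM in wild-type mice (log2 fold change 3.05, edgeR adjusted p = 0.0358). Its log2 fold change lay between 2.84 and 3.28 under 24 alternatives, but the call held in 9 of them and, among the fits with 1 library left out, only without Grhl3 KO library 1026. Within the 10xx libraries it was 2.87 (edgeR adjusted p = 0.416). Its partner Krt10 averaged 1839 ± 567 CPM in Grhl3 KO mice and 327 ± 491 CPM in wild-type mice; its log2 fold change of 2.49 missed the threshold (edgeR adjusted p = 0.524). Ivl, encoding the envelope scaffold involucrin, was at −1.90 and Sbsn (suprabasin) at −1.06 (edgeR adjusted p = 0.504 and 0.426). DESeq2 called Krt1 and Sbsn, and 7 of the 17 had an unadjusted p under 0.05 in edgeR, 2 higher and 5 lower (7.16% of all genes, and 0.868% called by DESeq2). Of 17 differentiation regulators 11 were higher and 6 lower (median 0.09), with 0 past the adjusted p in edgeR, 2 at an unadjusted p under 0.05 and 1, Hopx, called by DESeq2. Among these regulators Hopx, a homeodomain protein of differentiating keratinocytes, stood at −1.39, Grhl1, a relative of Grhl3, at 0.60, Notch1 at 0.27 and Maf at −0.43 (edgeR adjusted p = 0.257, 0.692, 0.724 and 0.744).

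Hair and papilla keratins, the partners of trichohyalin, were low: 2 of the 11 in the table were tested and Krt26 and Krt72 were at 0 in every library. Krt84, a keratin of tongue papillae, averaged 16.1 ± 6.83 CPM in Grhl3 KO mice and 7.04 ± 4.05 CPM in wild-type mice (log2 fold change 1.19, edgeR adjusted p = 0.568), and Krt36 was at −0.43 (edgeR adjusted p = 0.876). Their summed level ran from 8.61 to 25.4 CPM in Grhl3 KO mice and from 4.42 to 15.1 CPM in wild-type mice.

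Marker lists of tissue compartments had 0 members past the adjusted p in edgeR and 0 called by DESeq2, with 2 suprabasal genes, Krt78 and Sprr3, and 1 smooth muscle gene at an unadjusted p under 0.05. Of 8 suprabasal genes 2 were higher and 6 lower (median −0.26), with Sprr3 at −1.13, Krt78 at −1.59, Sprr1a at −0.57, Dsg3 at 0.14 and Krt6b at 0.09, and of 6 basal genes 1 was higher and 5 lower (median −0.25), with Krt14 at 0.05 (edgeR adjusted p from 0.504 to 0.982 for the genes named). All 10 skeletal muscle genes were higher (median 0.53, summed level 692 to 4920 CPM in Grhl3 KO mice and 1121 to 2517 CPM in wild-type mice). Of 6 smooth muscle genes 1 was higher and 5 lower (median −0.62), of 6 fibroblast genes 4 and 2 (median 0.21), of 6 leukocyte genes 3 and 3 (median −0.01) and of 5 endothelial genes 4 and 1 (median 0.18). The 4 Y-linked genes were higher (median 1.18, 0 at an unadjusted p under 0.05). The part of these compartments in the levels of the S100-fused type genes was not tested beyond the suprabasal, skeletal muscle and Y-linked covariates.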

How the data were processed

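Oesophageal RNA of 10 mice was measured. Per the submitters' processing notes, the authors counted reads with featureCounts against GRCm38 and deposited whole-number counts per gene, without normalization. The aligner, the annotation release and the handling of multi-mapping reads were not named. The table has 0 other per-sample columns and 0 rows that name no gene. Columns were joined to the labels by sample number. Nothing says more about the separate mice, so p-values measure the spread between these samples.

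Genes were kept with filterByExpr (minimum count 10, minimum total 15), scaled by TMM and tested with edgeR 4.0.16 (quasi-likelihood F-test, robust) in R 4.3.3, with Benjamini-Hochberg adjustment over 13731 genes. Standard errors follow from the F statistic. Log2 CPM carry a prior count of 2. Correlations used 100000 resamples, or all orders for fewer than 10 libraries. Lengths and positions come from GENCODE M21; 21842 of 22740 identifiers were found. Repeats were counted as exact stretches of 75 bases, and likeness to other genes with blastn 2.17.0. DESeq2 1.42.0 and limma 3.58.1 voom with library quality weights were alternatives. The fits were tested on simulated data.

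The members and gene lists were chosen with earlier results of these data known. Named genes are all members, up to 4 genes of smallest p per list with any past the threshold, the most abundant cell type markers, and the 3 genes most like each member, of which 1 is not reported here; some markers are given by counts only.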

Additional observations from a re-analysis of the deposited data

Results flagged for a closer look

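Single libraries stood apart from their group in 2 of 12 groups of 5 libraries examined. The measure was the gap to the nearest library divided by the range of the group. It was taken on CPM and not on log2 CPM, on which high values lie closer to the rest. A chance rate of about 1 flag in 20 applies to normally distributed values, which CPM were not shown to be, so the flags are descriptive. Hrnr in wild-type library 1528 stood at 145 CPM, with the next wild-type library at 25.5 CPM (ratio 0.864, critical value 0.71). This library also had almost no Y-linked expression and had the highest Rptn; their part in its Hrnr level was not tested. Rptn in Grhl3 KO library 1043 stood at 1835 CPM, with the next Grhl3 KO library at 916 CPM (ratio 0.731). The same library had the highest Crnn and the highest suprabasal sum of its group, at 11.2 and 65989 CPM.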

How the results depend on the processing

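Over 24 alternatives, Hrnr kept its negative sign and Crnn, Tchh and Tchhl1 their positive sign in all 24. The Hrnr log2 fold change ran from −4.53 to −2.49 with adjusted p from 0.00041 to 0.810, and 1 member (Hrnr) was called, by DESeq2 only. With 1 library left out Hrnr ran from −4.53 to −2.76. Adjusted p ran from 0.254 to 0.855 for Crnn, from 0.430 to 0.960 for Tchh and from 0.504 to 0.979 for Tchhl1. Rptn turned positive in 5 alternatives: 0.20 in limma voom with quality weights, 0.44 with the suprabasal covariate, 0.0192 with the Y-linked covariate, 0.0302 without wild-type libraries 1528 and 1555, and between −0.68 and 0.15 with 1 library left out. The cause was not tested. The count of all genes called was 11, against 119 in DESeq2, 56 with the suprabasal covariate, 7 without a filter, and 1 each in limma voom, with the Y-linked or sample-number covariate, in the 10xx libraries alone and without wild-type libraries 1528 and 1555; it ran from 1 to 16 with 1 library left out. The count of correlated pairs was 1, against 0 after centring on each group and 0 in the 10xx libraries, and ran from 0 to 1 with 1 library left out. No paired analysis was possible because the groups share no sample number. Depth limits Flg2, at 9 counts in all, and Tchhl1, whose counts ran from 10 to 278 per library. How reads from the repeats of Hrnr and Flg2 were counted is not known.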
